A study of Mus musculus with 26 samples.

Results

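From a mouse series of 26 arrays, the 2 titled ES25 and ES26 were set beside 4 others, ES21 to ES24, and the 6 were described gene by gene. All 6 samples carry the strain label C57BL/6, as do 12 of the 26, and the other 14 are labelled 129S2/SvPas. The abbreviations ES and EB in the labels were taken to stand for embryonic stem cell and embryoid body, and each sample is called a cell of the latter kind. They name no treatment, genotype, time point, age, culture or batch, so the titles serve as names. RNA from each sample was amplified in 2 rounds and hybridised once to the Affymetrix Mouse Exon 1.0 ST array. The values are RMA expression values on the log2 scale, so that 1 unit is a 2-fold difference. A gene value is the median of the brighter 50% of a gene's probe sets, and 18341 genes with at least 4 probe sets had one.

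The arrays were chosen by their measured values, ES21 to ES24 by high naive pluripotency genes and ES25 and ES26 by their distance from them. The differences between the sets are therefore a description, and no test was made of any of them. Nothing in the labels says that the 2 or the 4 arrays were separate cultures, and with 2 arrays on 1 side the values of both are given. Within a tissue sample, fewer cells of a type and less RNA per cell cannot be told apart. A gene was counted as higher or lower where ES25 and ES26 both lay beyond all 4 other arrays and the means differed by at least 2-fold.

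Naive pluripotency is the state of the mouse preimplantation epiblast and of embryonic stem cells derived from it, held by a transcription factor network around Pou5f1, Sox2, Nanog and Esrrb. Its cells are epithelial, joined by E-cadherin (Cdh1), and in culture they are often kept on a layer of embryonic fibroblasts. In an epithelial to mesenchymal transition cells replace E-cadherin junctions with collagen-rich matrix and N-cadherin, and factors of the Snail, Zeb and Twist families repress epithelial genes through E-boxes. Embryoid bodies are aggregates in which stem cells differentiate toward the germ layers.

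ES25 and ES26 had low RNA for pluripotency and epithelial genes and high RNA for collagens and other mesenchymal genes beside ES21 to ES24. By the rule above 799 genes were lower (4.36% of the genes measured) and 603 higher (3.29%). Since these same arrays defined the sets, nothing is read from these shares beyond their size. They are the background for each list count below. The differences were not symmetrical: 245 genes were at least 4-fold lower (1.34%) and 12 at least 4-fold higher (0.0654%). Differences ran from -5.38 to 2.67, with a median of 0.01 over all genes. The higher count rested on which of the 4 arrays were used: it was 183 against ES21 and ES22 alone, 1316 against ES23 and ES24 alone and 344 without ES24. With ES25 left out, so that ES26 stood alone against the 4, it was 997. The lower count was 686 against ES21 and ES22 alone and 1039 against ES23 and ES24 alone.

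**Figure D1:**
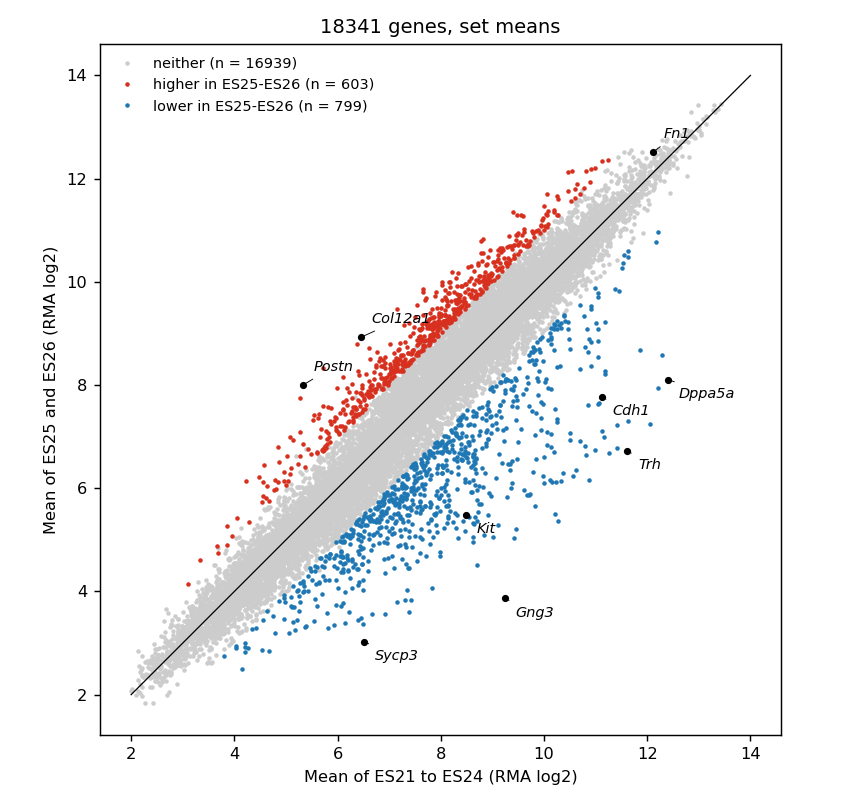
Mean log2 gene value of ES25 and ES26 (vertical axis) against that of ES21 to ES24 (horizontal axis) for each of the 18341 genes, with genes counted as higher or lower coloured. The lower genes reach 5.38 units below the diagonal and the higher genes 2.67 units above it.

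3 genes had been taken as marks of these arrays. Dppa5a, a naive pluripotency gene whose product binds RNA, read 12.66, 12.52, 12.62 and 11.84 in ES21 to ES24, and 7.34 and 8.87 in ES25 and ES26. The means differed by -4.30, a 19.7-fold lower level, and its 4 probe sets were all lower. Kit, the receptor of stem cell factor, read 8.16, 8.03, 8.85 and 8.88 against 5.29 and 5.67. Both values lay below every other array of the series, and 24 of its 25 probe sets were lower. Fn1, which encodes the matrix protein fibronectin, did not separate the sets. It read 12.29, 12.32, 11.97 and 11.86 in ES21 to ES24 and 12.73 and 12.29 in ES25 and ES26, so that ES26 lay below ES22. Each of its 55 probe sets had a higher mean in ES25 and ES26, and the gene difference was 0.40. Fn1 was as bright in ES15 to ES20, at 12.40 to 12.78, and dim in ES1 to ES12, at 5.96 to 8.31.

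**Figure D2:**
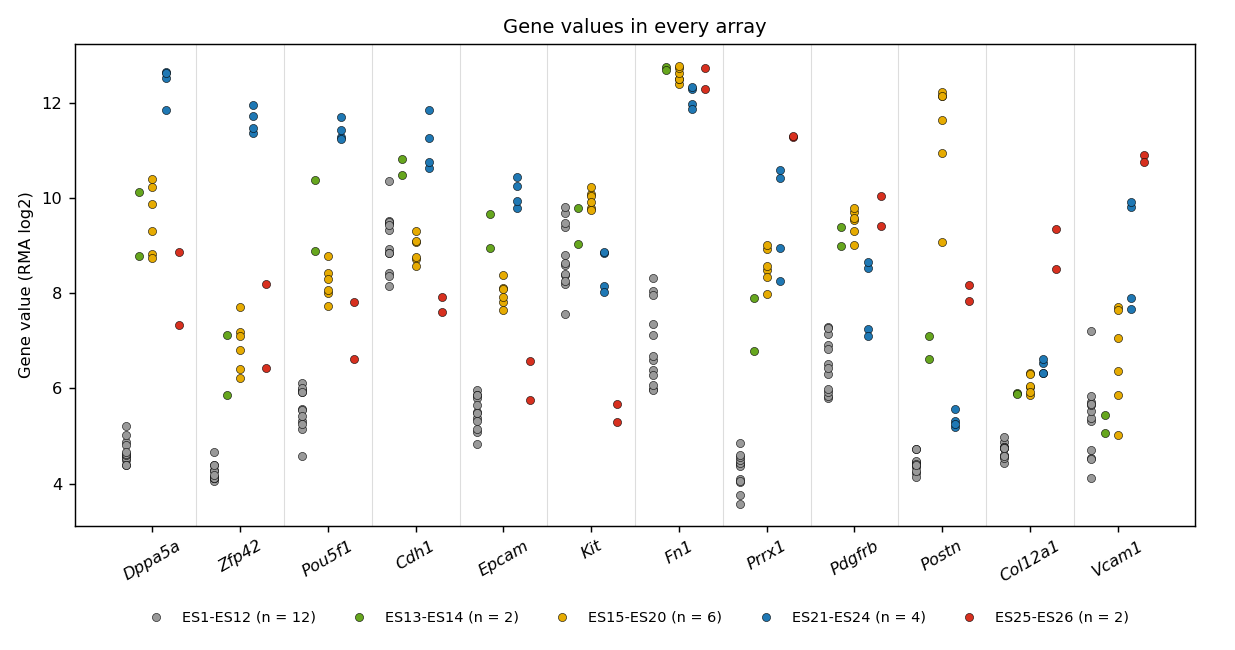
Log2 gene values on every array for 12 genes named in the text, 1 point per array, with the sets of arrays in different colours. Dppa5a, Kit and Cdh1 leave a gap between the sets, whereas the 2 sets overlap for Fn1.

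ES21 to ES24 had been chosen by naive pluripotency genes, so their level of these genes restates the choice. The mean level of 38 naive pluripotency genes was 9.68, 9.75, 10.21 and 9.87 on these 4 arrays, 7.41 and 7.94 on ES25 and ES26, 7.50 to 7.92 on ES15 to ES20 and 6.64 to 7.01 on ES1 to ES12. The 4 arrays stood above the other 22 on this list. They were not free of mesenchymal RNA: the mean of 31 fibroblast and mesenchyme genes was 8.57 and 8.57 in ES21 and ES22, 7.78 and 7.45 in ES23 and ES24, and 9.33 and 9.12 in ES25 and ES26. On the same list ES1 to ES12 had 6.21 to 6.65 and ES13 and ES14 7.59 and 7.75. ES15 to ES20 had 7.98 to 9.89, a range that holds both ES25 and ES26. ES21 and ES22 thus lay nearer to ES25 and ES26 than ES23 and ES24 did.

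Of the 38 naive genes measured, 26 were lower in ES25 and ES26, none was higher, and their median difference was -1.95 beside 0.01 for all genes. Utf1, a chromatin-bound factor of stem cells, read 12.00, 11.81, 12.49 and 11.95 in ES21 to ES24 and 6.30 and 8.19 in ES25 and ES26. Nr0b1, an orphan nuclear receptor, read 11.09, 11.55, 11.70 and 11.31 against 5.86 and 7.70. Zfp42, known as Rex1, read 11.36, 11.48, 11.95 and 11.72 against 6.43 and 8.19. In all 3, ES26 was higher than ES25 by more than 1.7 units and both arrays lay far below the 4. The nuclear receptor Esrrb read 10.60, 10.69, 11.17 and 10.83 against 6.25 and 7.04. Nanog, the homeobox factor that sustains self-renewal, read 10.88, 10.79, 11.49 and 11.14 against 7.20 and 8.09. The set means thus differed by -3.43 for Nanog and -4.18 for Esrrb.

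12 members of the naive list were not counted, among them genes of the LIF pathway, through which the cytokine LIF acts on stem cells. The signal transducer Stat3 differed by 0.31, its inhibitor Socs3 by 0.61 and the receptor subunit Il6st by 0.61, all upward. Socs3 read 7.98, 8.02, 8.39 and 8.26 in ES21 to ES24 and 8.87 and 8.67 in ES25 and ES26, with no overlap but less than 2-fold apart. The receptor Lifr read 8.79, 8.88, 9.55 and 9.72 against 8.76 and 8.81 and overlapped. For Klf4 and Klf2, which are part of the naive network, the set means differed by -0.53 and -0.55, and neither was counted. Other members known to respond to LIF were lower, Tfcp2l1 with a difference of -3.28 and Tbx3 with -1.18, while Klf5 differed by -0.88 and was not counted.

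General pluripotency genes, shared by naive and primed cells, gave 14 lower and no higher among 18, with a median of -2.12. Pou5f1, the Oct4 gene, read 11.28, 11.23, 11.70 and 11.44 in ES21 to ES24 and 6.61 and 7.82 in ES25 and ES26. Lin28a, which blocks let-7 maturation, read 10.41, 10.58, 11.78 and 11.69 against 6.57 and 7.66. Sox2 was lower by a smaller margin, with 10.95, 11.01, 11.44 and 11.36 against 8.85 and 9.58. Myc differed the other way and was not counted, at 10.99, 10.97, 10.78 and 10.66 against 11.30 and 11.66, whereas Mycn was lower, with a difference of -2.40. On this list ES25 and ES26 had means of 7.42 and 7.86, above the 6.67 to 7.08 of ES1 to ES12. They lay below ES13 and ES14, at 9.12 and 9.48, and below ES15 to ES20, at 8.01 to 8.80.

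Primed epiblast genes, which mark the state after implantation, were not higher in their place. Of 23 measured, 12 were lower and none higher, with a median of -1.13. Otx2, a homeobox factor of the primed state, read 7.12, 7.55, 8.24 and 7.81 in ES21 to ES24 and 6.10 and 5.86 in ES25 and ES26. Dnmt3b, a de novo DNA methyltransferase, read 10.02, 10.27, 10.66 and 11.03 against 6.52 and 7.35. Fgf5, the growth factor often used to mark primed cells, overlapped between the sets, at 7.48, 7.26, 7.19 and 7.06 against 6.92 and 7.89.

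The 14 largest differences downward, among genes in which a share of 0.75 or more of the probe sets moved the same way, ran from -4.24 to -5.38. These were Gng3, Pou5f1-rs4, Trh, Utf1, Car2, Fbxo15, Nr0b1, Rex2, Cldn6, Zfp42, Dppa5a, Dppa2, Tdgf1 and L1td1. Their values lay between 8.84 and 12.66 in ES21 to ES24 and between 3.02 and 8.87 in ES25 and ES26. Gng3, a G protein gamma subunit known from neurons, stood at the end of the range with 8.84, 9.05, 9.97 and 9.11 against 3.02 and 4.71. Trh, the precursor of thyrotropin-releasing hormone, read 11.33, 11.54, 12.12 and 11.44 against 6.11 and 7.35. Car2, a carbonic anhydrase, read 10.49, 10.69, 11.02 and 11.30 against 5.20 and 7.13 but was as bright in ES15 to ES20, at 10.32 to 12.18. Pou5f1-rs4 is related in sequence to Pou5f1, and signal of the 2 genes may be shared between their probes.

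Epithelial genes were lower together. Of 29 measured, 19 were lower and none higher, and their median difference was -1.38. The count was 17 against ES21 and ES22 alone and 21 against ES23 and ES24 alone. Cdh1 read 10.62, 10.75, 11.27 and 11.86 in ES21 to ES24 and 7.60 and 7.93 in ES25 and ES26, a 10.3-fold lower level. Both Cdh1 values lay below all 24 other arrays, as did those of 451 genes in all (2.46%). Esrp1, an RNA-binding protein that sets epithelial splicing, read 8.10, 8.28, 9.39 and 9.06 against 4.47 and 4.55. Epcam, an epithelial adhesion molecule, read 9.80, 9.94, 10.43 and 10.26 against 5.75 and 6.58. For each of these 3 genes the gap between the sets was wider than the spread within either. The transcription factor Grhl2, which activates epithelial junction genes, differed by -2.05, the tight junction protein Ocln by -1.84 and the keratins Krt8 and Krt18 by -2.07 and -1.96, all counted as lower. The list means were 8.02, 8.05, 8.55 and 8.50 in ES21 to ES24 and 6.44 and 6.73 in ES25 and ES26. They were 6.34 to 6.78 in ES1 to ES12, 7.86 and 8.27 in ES13 and ES14, and 7.43 to 7.86 in ES15 to ES20.

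Promoters of epithelial genes are shown because Snail and Zeb factors are known to bind the E-box CACCTG, which reads CAGGTG on the other strand. Each sequence is the 250 bases before the start in the RefSeq annotation of GRCm38.p6, in the direction of the gene, with every CACCTG or CAGGTG in capitals. Cldn6 encodes a claudin of tight junctions, Ap1m2 an adaptor subunit for sorting to the basolateral membrane, and Pou5f1 is set beside them. The windows are chr17:23679115-23679364 on the + strand for Cldn6, chr17:87635729-87635978 on the + strand for Epcam, chr9:21312334-21312583 on the - strand for Ap1m2 and chr17:35505782-35506031 on the + strand for Pou5f1.
Cldn6: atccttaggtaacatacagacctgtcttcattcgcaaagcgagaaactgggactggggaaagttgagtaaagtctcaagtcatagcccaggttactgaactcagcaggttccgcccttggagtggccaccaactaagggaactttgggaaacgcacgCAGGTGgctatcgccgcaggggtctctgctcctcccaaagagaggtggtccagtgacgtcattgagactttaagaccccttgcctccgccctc
Epcam: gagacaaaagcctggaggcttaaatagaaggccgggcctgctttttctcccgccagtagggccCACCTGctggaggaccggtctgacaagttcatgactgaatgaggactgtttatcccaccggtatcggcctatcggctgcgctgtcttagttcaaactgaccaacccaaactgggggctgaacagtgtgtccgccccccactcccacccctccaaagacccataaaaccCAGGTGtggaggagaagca
Ap1m2: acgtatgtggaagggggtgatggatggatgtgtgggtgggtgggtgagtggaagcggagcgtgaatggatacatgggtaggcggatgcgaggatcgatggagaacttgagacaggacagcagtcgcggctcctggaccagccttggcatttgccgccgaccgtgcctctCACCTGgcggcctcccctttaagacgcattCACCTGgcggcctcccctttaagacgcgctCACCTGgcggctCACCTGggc
Pou5f1: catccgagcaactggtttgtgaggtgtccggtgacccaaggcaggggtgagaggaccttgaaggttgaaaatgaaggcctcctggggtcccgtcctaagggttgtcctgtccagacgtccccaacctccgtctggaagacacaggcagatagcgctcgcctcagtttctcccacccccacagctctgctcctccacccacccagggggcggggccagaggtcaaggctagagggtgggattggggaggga
Cldn6 held 1 such E-box, beginning 93 bases before the start, Epcam 2 (187 and 19 bases before), Ap1m2 4 (81, 51, 21 and 9 bases before) and the Pou5f1 window 0.

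Promoters on chr18 and entries not of full length were left out of the counts. The motif was present in 17.2% of the 32851 promoter windows kept and in 17.0% of those of measured genes. It was present in 25.6% of windows of lower genes (204 of 796) and 13.1% of windows of higher genes (81 of 618). Lower epithelial genes held it in 12 of 17 windows (70.6%), or 11 of 14 genes, beside 19.7% of measured genes with a window. Spint2 had 3 copies and Krt8, Krt18 and Grhl3 had 1 each, while Spint1, Jup and Dsp had none. The other lower epithelial genes, Cdh1 and Esrp1 among them, had no window in the counts. Epithelial genes not counted as lower were not examined for the motif. Lower naive genes held it in 11 of 21 windows (52.4%), or 10 of the 15 lower genes with a window. Lower general pluripotency genes held it in 1 of 15 windows (6.67%), that of Epcam, which is also on the epithelial list. These are counts of letters in a window, and binding was not measured. Among the genes of E-box binding factors, Zeb1 read 8.40, 8.48, 7.99 and 7.85 in ES21 to ES24 and 8.93 and 8.96 in ES25 and ES26. Zeb2 differed by 0.72, and neither Zeb gene was counted. Snai1 read 8.14, 8.25, 7.61 and 7.16 against 8.76 and 8.86, a difference of 1.02 that was 0.62 against ES21 and ES22 alone. It was counted as higher, though not without ES23, without ES24 or without ES26. Snai2 differed by 0.67 without overlap and was not counted. Twist1, with 8.86, 8.93, 8.12 and 7.59 against 9.27 and 9.72, was counted as higher at 1.12, though not against ES21 and ES22 alone. Twist2 overlapped between the sets, at 9.20, 9.61, 8.34 and 7.29 against 9.35 and 9.84. The gene value under the symbol Tcf3 differed by -0.87 and that under Tcf4 by 0.83. Which genes the probe sets under these symbols measure was not checked.

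Fibroblast and mesenchyme genes made the clearest group in the other direction. Of 31 measured, 20 were higher and none lower, with a median of 1.12. Only 7 of the 31 were higher against ES21 and ES22 alone, with a median of 0.64, and 25 against ES23 and ES24 alone, with a median of 1.72. The count was 13 without ES24, 16 without ES23, 17 without ES25 and 21 or more without any 1 of the other arrays. Postn, the matrix protein periostin, read 5.56, 5.32, 5.18 and 5.25 in ES21 to ES24 and 8.16 and 7.83 in ES25 and ES26, 6.37-fold higher. All 4 arrays were low and close together for Postn, and ES15 to ES20 were higher than either set at 9.08 to 12.23. Col12a1, a fibril-associated collagen outside the list, read 6.53, 6.61, 6.33 and 6.32 against 9.34 and 8.51. Col12a1 lay above all 24 other arrays, as did 829 genes in all (4.52%).

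Other mesenchymal genes were graded over the 4 arrays. Prrx1, a homeobox factor of limb and craniofacial mesenchyme, read 10.41, 10.58, 8.96 and 8.26 in ES21 to ES24 and 11.28 and 11.31 in ES25 and ES26. Its difference was 0.80 against ES21 and ES22 alone and 2.69 against ES23 and ES24 alone, beside 1.74 against all 4. Col1a2, a type I collagen chain, read 11.08, 11.12, 9.82 and 9.86 against 12.49 and 11.78. Prrx1 and Col1a2 were thus bright in ES21 and ES22, arrays that also had high pluripotency RNA. Col1a1, the other chain, read 9.79, 9.60, 8.83 and 9.54 against 11.41 and 9.70, so that ES26 overlapped with ES21. Decorin (Dcn) and lumican (Lum), matrix proteins of mature fibroblasts, stayed below 5.3 on all 6 arrays, and Thy1, a fibroblast surface protein, overlapped between the sets.

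**Figure D3:**
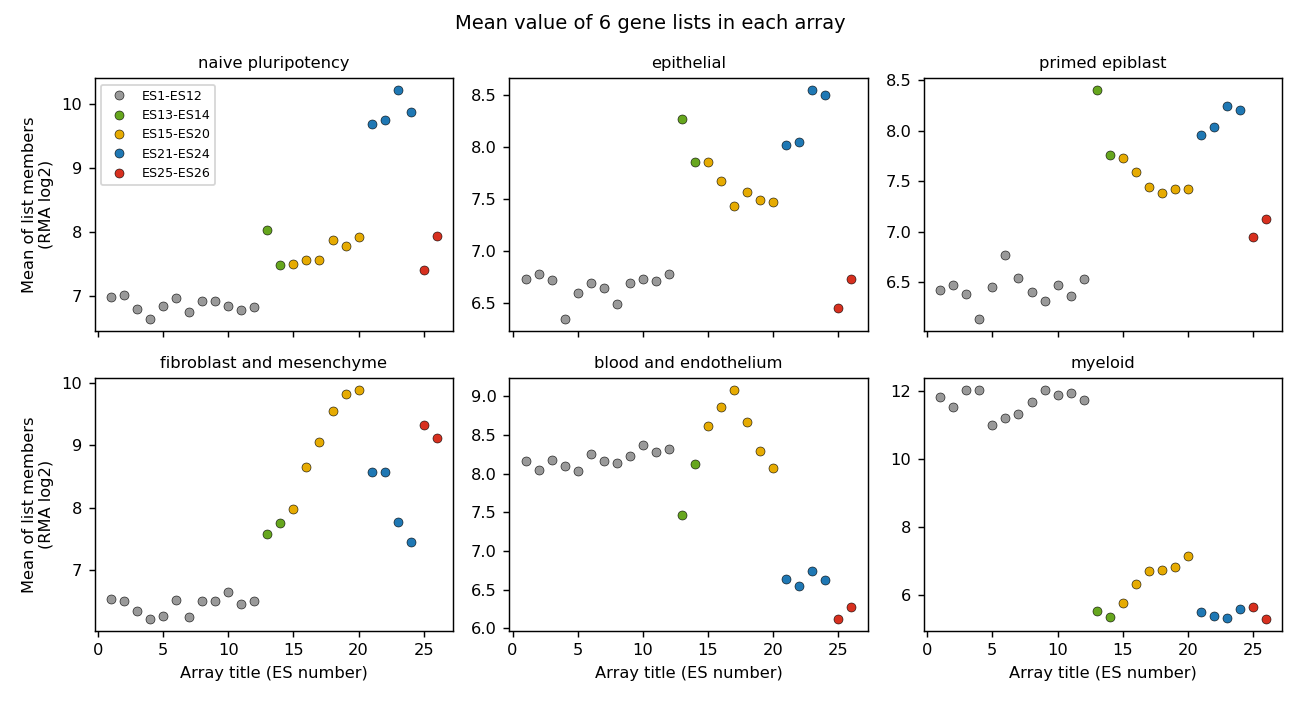
Mean log2 level of 6 gene lists (vertical axes) on every array by its title number (horizontal axes), 1 point per array, with sets coloured. Naive and epithelial lists are high in ES21 to ES24 and low in ES25 and ES26, and the fibroblast list is lower in ES23 and ES24 (7.78 and 7.45) than in ES21 and ES22 (8.57 and 8.57) and ends at 9.33 and 9.12.

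The 14 largest differences upward ran from 1.98 to 2.67: Postn, Adamts5, Casp12, Col12a1, Fbln5, Osmr, Ptn, Olfml2b, Ccdc80, P2ry10b, Vcam1, Nsg1, Rab27b and Anxa8. Adamts5, a protease that cuts aggrecan, read 5.90, 6.02, 5.51 and 5.45 in ES21 to ES24 and 8.45 and 8.21 in ES25 and ES26. Osmr, the oncostatin M receptor, read 7.70, 8.15, 6.44 and 6.35 against 9.40 and 9.53 and was above all 24 other arrays, as was Adamts5. Fbln5, a glycoprotein of elastic fibres, read 6.86, 6.81, 5.75 and 6.09 against 8.68 and 8.91. These 3 genes kept at least a 2-fold gap of means against either pair of the 4 arrays. Vcam1, an adhesion molecule for leukocytes, did not: it read 9.82, 9.91, 7.68 and 7.90 against 10.90 and 10.76, and its difference was 0.97 against ES21 and ES22 alone and 3.04 against ES23 and ES24 alone. Ptn and Rab27b were also sensitive to the pair, with 1.35 and 1.27 against ES21 and ES22 alone beside 2.21 and 1.99 against all 4.

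Of 20 factors and effectors of the epithelial to mesenchymal transition, 6 were higher, none lower and all 20 had a difference above 0, with a median of 0.80. The count was 1 against ES21 and ES22 alone and 13 against ES23 and ES24 alone. The list mean was 9.75 in ES25 and in ES26, within the 9.31 to 10.05 of ES15 to ES20. Cdh2, the N-cadherin gene, read 9.96, 10.18, 9.66 and 9.25 in ES21 to ES24 and 10.49 and 10.97 in ES25 and ES26, short of 2-fold. Cdh11, a mesenchymal cadherin, read 9.46, 9.43, 7.64 and 7.42 against 9.91 and 9.99, with 0.50 against ES21 and ES22 alone. It was brighter in ES13 and ES14, at 11.3 and 11.4, and in ES15 to ES20, at 11.0 to 12.3. Tgfbr2, a receptor of TGF-beta, read 7.99, 8.18, 7.21 and 7.16 against 9.28 and 9.10 and was the member counted against either pair. Vim was bright on all 6 arrays, with 13.17, 13.22, 12.91 and 12.61 against 13.47 and 13.40.

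Contractile and smooth muscle genes gave 4 higher and none lower of 27, with a median of 0.47. Acta2, smooth muscle actin, read 11.02, 10.90, 10.63 and 9.65 in ES21 to ES24 and 11.95 and 12.36 in ES25 and ES26. Ankrd1 and Ccn1, both known targets of YAP, read 10.00 and 10.67, and 10.55 and 10.80, in ES25 and ES26. In ES21 to ES24 Ankrd1 read 9.18, 9.22, 8.91 and 7.62, and Ccn1 9.46, 9.02, 9.55 and 9.07. Tagln overlapped between the sets and Cnn1 differed by -0.91, so the smooth muscle genes did not move as 1 group.

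**Figure D4:**
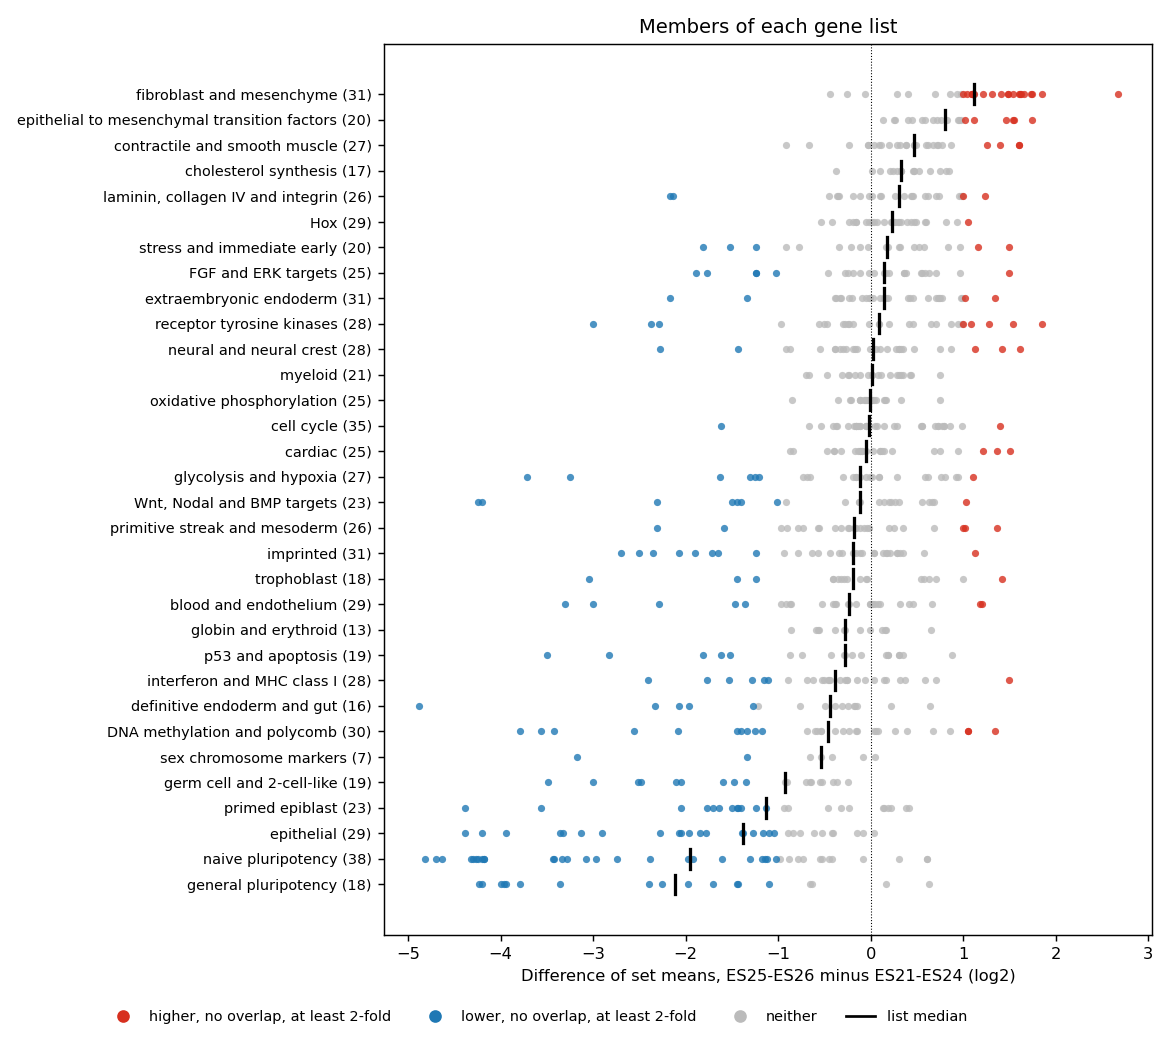
Difference of set means (log2, ES25 and ES26 minus ES21 to ES24) for each measured member of 32 gene lists, with the list median as a bar and the number of members in brackets. Members of the fibroblast list counted as higher lie to the right, and 26 of 38 naive members lie to the left as lower.

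Receptor tyrosine kinases differed in both directions, with 5 higher and 3 lower of 28 and a median of 0.09. The lower were Kit, Erbb3 and Tek. Erbb3, a neuregulin receptor, read 7.37, 7.56, 8.53 and 8.05 in ES21 to ES24 and 5.51 and 5.51 in ES25 and ES26, below every other array of the series. The higher were Pdgfrb, Ddr2, Axl, Met and Pdgfra. Pdgfrb, a receptor for platelet-derived growth factor on mesenchymal cells, read 8.52, 8.65, 7.24 and 7.11 against 10.05 and 9.41. Pdgfrb alone of the 5 was higher against ES21 and ES22 alone, at 1.15. The FGF receptor Fgfr1 differed by 0.20 and overlapped.

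Blood and endothelial genes, a list that holds Kit, gave 5 lower and 2 higher of 29, with a median of -0.23. Pecam1, an adhesion molecule of endothelium that stem cells also carry, read 7.57, 7.99, 9.14 and 8.67 in ES21 to ES24 and 5.23 and 4.84 in ES25 and ES26. Tek, the angiopoietin receptor, differed by -2.29, the TGF-beta co-receptor Eng by -1.47 and Lmo2 by -1.36. Pecam1, Kit and Eng were below all 24 other arrays. The higher were Runx1 and Cd34, with differences of 1.18 and 1.20, and neither was counted without ES24 or without both ES23 and ES24. Defining blood genes were low throughout: the myeloid list had a mean of 5.27 to 5.64 on the 6 arrays beside 11.0 to 12.03 on ES1 to ES12, and the globin list 6.06 to 6.47 beside 9.26 to 11.1 on ES15 to ES20. Neither list had a member counted in either direction, of 21 and 13 genes.

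Of 19 germ cell genes measured, 9 were lower, none was higher and all 19 differences were below 0, with a median of -0.93. Sycp3, a protein of the meiotic chromosome axis, read 6.17, 6.35, 7.27 and 6.25 in ES21 to ES24 and 2.89 and 3.16 in ES25 and ES26. Ddx4, the germ cell helicase Vasa, read 6.03, 5.95, 7.22 and 6.78 against 3.94 and 4.10. Mael, of the piRNA pathway, read 5.51, 5.04, 6.60 and 6.11 against 3.44 and 3.15. For these 3 genes ES25 and ES26 lay within or near the range of ES1 to ES12.

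Genes of DNA methylation and polycomb complexes gave 10 lower and 3 higher of 30, with a median of -0.46. Tet1, which oxidises methylcytosine, read 10.07, 10.26, 11.21 and 11.23 in ES21 to ES24 and 6.58 and 7.23 in ES25 and ES26. Dnmt3l, a cofactor of de novo methylation, read 10.13, 9.98, 10.87 and 11.00 against 6.44 and 7.71. The polycomb cofactor Jarid2 read 10.59, 10.63, 11.24 and 11.20 against 8.22 and 8.50, below all 24 other arrays. The maintenance methyltransferase Dnmt1 differed by 0.26 and the polycomb methyltransferase Ezh2 by -0.15, and neither was counted. Within polycomb complex 1, Phc1 differed by -2.08 and Cbx7 by -1.25, while Phc2 and Bmi1 were higher by 1.05 and 1.35. None of the 3 higher genes was counted against ES21 and ES22 alone.

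Wnt, Nodal and BMP targets gave 7 lower and 1 higher of 23. Lefty1, an antagonist of Nodal, read 10.08, 10.54, 10.97 and 9.74 in ES21 to ES24 and 6.08 and 6.18 in ES25 and ES26. The Nodal co-receptor Tdgf1 read 12.07, 12.16, 12.34 and 12.24 against 7.45 and 8.45, and Nodal itself differed by -1.45. The Wnt target Axin2 differed by -1.40 and the streak gene T by -2.31. The BMP target Id3 was higher by 1.03, though not without ES24. Of 25 FGF and ERK target genes 5 were lower, led by the feedback inhibitor Spry4 at 9.87, 10.17, 10.30 and 10.65 against 8.03 and 8.69, and the immediate early gene Fos was higher by 1.50. The list median was 0.15.

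Of 16 definitive endoderm and gut genes 5 were lower and none higher, with a median of -0.44. They were Trh, Prom1, Krt8, Krt18 and Cldn7, of which the keratins and Cldn7 are also on the epithelial list. The endoderm factors Sox17 and Foxa2 differed by -0.39 and 0.64 and were not counted. Primitive streak and mesoderm genes gave 3 higher and 2 lower of 26, extraembryonic endoderm genes 2 in each direction of 31 and trophoblast genes 1 higher and 3 lower of 18. Over all genes 3.29% were higher and 4.36% lower. The trophoblast and germ cell factor Tfap2c read 8.29, 8.24, 9.49 and 8.97 in ES21 to ES24 and 5.65 and 5.75 in ES25 and ES26. Prom1, a membrane protein of progenitors, read 6.41, 6.82, 7.28 and 7.40 against 4.72 and 4.57. Both genes left a gap of over 1.5 units between the sets. Cardiac genes gave 3 higher of 25, the transcription factors Isl1, Tbx20 and Mef2c (0.84 and not counted against ES21 and ES22 alone), while the sarcomere genes Myh6, Myh7 and Tnnt2 differed by -0.47, -0.17 and -0.11. Neural and neural crest genes gave 3 higher and 2 lower of 28. Pax3, a factor of neural crest and muscle progenitors, read 7.29, 7.50, 6.65 and 6.05 against 8.44 and 8.52, above all 24 other arrays, and Stmn2, a neuronal tubulin-binding protein, differed by -2.28. Of 29 Hox genes 1, Hoxc5, was higher, which is near the 3.29% share of all genes. Hoxc5 differed by 1.05 and was not counted against ES21 and ES22 alone, at 0.97.

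Imprinted genes gave 8 lower and 1 higher of 31, with a median of -0.19. H19, a noncoding RNA expressed from the maternal copy, read 9.48, 9.21, 11.05 and 10.22 in ES21 to ES24 and 7.82 and 7.45 in ES25 and ES26. Its neighbour Igf2, expressed from the paternal copy, overlapped at 8.16, 8.22, 7.78 and 7.43 against 7.68 and 7.43. Meg3 and Rian, noncoding RNAs of another imprinted cluster, differed by -1.72 and -2.50. Mest differed by -2.07 and Phlda2 by -2.70, and Sgce was higher by 1.13, though not without ES24 or without ES26. Tsix, the antisense RNA of Xist, differed by -3.18 while Xist itself differed by -0.66, and as the transcripts overlap their probe sets may share signal. The Y-linked gene Eif2s3y read 8.87, 9.01, 9.73 and 9.33 against 7.92 and 7.87, far above the 2.77 to 4.03 of ES1 to ES12.

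Laminin, collagen IV and integrin genes gave 2 in each direction of 26, with a median of 0.31, beside 3.29% higher and 4.36% lower over all genes. Lama1, the laminin chain of early embryonic basement membrane, read 8.33, 8.31, 9.07 and 8.96 in ES21 to ES24 and 6.41 and 6.59 in ES25 and ES26. The integrin subunit Itga9 differed by -2.14 and Itgav by 1.00, the latter at the edge of the 2-fold limit, which Ephb4 and Col4a2 missed at 0.99. Without ES24 or without ES26 Itgav was not counted.

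In glucose metabolism 6 of 27 genes were lower and 1 higher, with a median of -0.11. The neuronal-type glucose transporter Slc2a3 read 12.01, 12.07, 12.64 and 12.44 in ES21 to ES24 and 7.91 and 9.23 in ES25 and ES26. The lactate exporter Slc16a3 read 10.81, 10.90, 10.80 and 10.92 against 7.36 and 7.86, below all 24 other arrays. The other lower members were the glucose transporter Slc2a1 at -1.25 and the enzymes Pfkp, Aldoc and Ldhb at -1.63, -1.30 and -1.21. The related enzymes Pfkl, Aldoa and Ldha differed by -0.66, 0.01 and 0.09 and were not counted. The vasodilator peptide gene Adm was higher by 1.11, though not without ES24 or without ES26. Oxidative phosphorylation genes had no member counted of 25, with a median of -0.01, and cholesterol synthesis genes none of 17, with a median of 0.33.

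Of 19 genes of the p53 response and apoptosis 5 were lower and none higher, with a median of -0.28. Trp53inp1, a p53-induced nuclear protein, read 9.84, 10.09, 10.30 and 10.55 in ES21 to ES24 and 6.33 and 7.07 in ES25 and ES26. The receptor gene Eda2r read 8.11, 8.02, 8.60 and 8.50 against 5.37 and 5.58. Sesn2, a stress-induced inhibitor of mTORC1, read 8.18, 8.23, 8.69 and 8.70 against 6.62 and 6.65. Cdkn1a, the cell cycle inhibitor p21, read 8.49, 8.51, 8.51 and 8.05 against 5.98 and 7.56 and was not counted without ES25, where its difference was -0.84. Trp53inp1, Sesn2 and Cdkn1a were below all 24 other arrays. The p53 inhibitor Mdm2 differed by -0.43 and was not counted. Of 35 cell cycle genes 1 was lower, Cdkn1a, and 1 higher, the inhibitor Cdkn2c at 1.40, which was 0.78 and not counted against ES21 and ES22 alone. These cell cycle counts are near the shares of all genes, 4.36% lower and 3.29% higher. The proliferation gene Mki67 overlapped at 10.17, 10.57, 10.20 and 10.36 against 10.76 and 10.39.

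Interferon and MHC class I genes gave 6 lower and 1 higher of 28, with a median of -0.38. The class I gene H2-K1 read 8.74, 9.07, 9.03 and 8.73 in ES21 to ES24 and 6.92 and 7.32 in ES25 and ES26, below all 24 other arrays. Gbp2, an interferon-induced GTPase, read 6.82, 7.69, 7.93 and 8.80 against 5.08 and 5.71, and Ifit2 was higher by 1.50, though not against ES21 and ES22 alone. Class I genes are a family with near-identical members, so their probes may share signal. Stress and immediate early genes gave 2 higher, Fos and Fosb, and 3 lower, Sesn2, Gadd45a and Trib3, of 20.

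ES25 and ES26 were alike but not equal. Over all genes their values had a correlation of 0.984, and 486 genes differed at least 2-fold between them. Of the 799 lower genes 551 (69.0%), and of the 603 higher genes 445 (73.8%), were higher in ES26 than in ES25, beside 64.1% of all genes. Pou5f1-rs4 and Rex2 differed by over 2 units between ES25 and ES26, whereas Lefty1, Esrp1 and Erbb3 were equally low in both. Taken singly against the 4 arrays, ES25 had 539 genes higher and 994 lower, and ES26 997 higher and 817 lower. ES25 thus had more genes lower and ES26 more genes higher, in the direction in which 64.1% of all genes differed between them. Nothing particular to the counted genes is read from this.

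**Figure D5:**
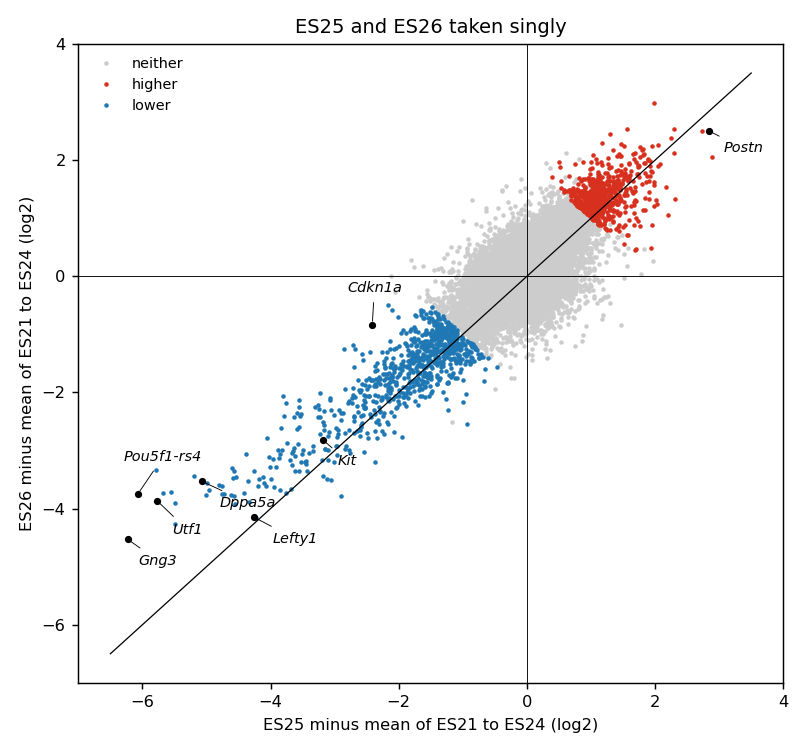
Difference of ES26 (vertical axis) against that of ES25 (horizontal axis), each minus the mean of ES21 to ES24 (log2), 1 point per gene, with the line of equality. Most strongly lower genes lie above the line, so that ES25 is lower than ES26, as do 64.1% of all genes, and Lefty1 lies on it.

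Among the 4 arrays, ES21 and ES22 were closest, with a correlation of 0.991 over all genes. ES23 had 0.982 with ES21, 0.984 with ES22 and 0.981 with ES24, and ES24 had 0.972 with ES21 and 0.971 with ES22. ES25 had 0.964 and 0.965 with ES21 and ES22 and 0.938 and 0.931 with ES23 and ES24. ES26 had 0.968 and 0.972 with ES21 and ES22 and 0.947 and 0.929 with ES23 and ES24. Of the 603 higher genes 524 (86.9%) were higher in both ES21 and ES22 than in either of ES23 and ES24, beside 26.1% of all genes. Of the 799 lower genes 559 (70.0%) were lower in both, beside 18.3%. ES21 and ES22 therefore lay between ES23 and ES24 on one side and ES25 and ES26 on the other for most genes counted, and the fibroblast list moved with them. The part of mesenchymal cells in these differences was not tested. Correlations with ES13 to ES20 were 0.904 to 0.933. All these correlations are across genes of arrays that share the platform and its normalization, and genes are not independent replicates.

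Beside all 24 other arrays, 265 of the 603 higher genes (1.44% of those measured) were above every one and 174 of the 799 lower genes (0.949%) below every one. Most of the lower genes were therefore as low or lower on some array outside ES21 to ES24. Dppa5a is an example, with 7.34 and 8.87 in ES25 and ES26 and 4.38 to 5.21 in ES1 to ES12, while Kit at 7.56 to 9.81 and Cdh1 at 8.14 to 10.36 in ES1 to ES12 are not.

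Within genes, the value of a probe set minus that of its gene was compared between the sets. For 17 of 123419 probe sets it differed by at least 4-fold without overlap. It was higher in ES25 and ES26 for 14 (0.0113%) and lower for 3 (0.00243%). The count was 30 without ES22, 29 without ES25 and 56 against ES23 and ES24 alone. A Cdh1 probe set read 10.45, 10.75, 10.63 and 11.68 in ES21 to ES24 and 10.74 and 9.70 in ES25 and ES26, although the gene value differed by -3.36. A probe set of Klhl13, an adaptor of a ubiquitin ligase, stayed at 7.82 to 8.49 on the 6 arrays while the gene value differed by -3.40. In the other direction, a probe set of Jade1, a chromatin reader, read 10.09, 10.08, 10.91 and 10.96 against 6.68 and 7.45 where the gene differed by -1.43. A probe set of the transporter Abcg2 read 9.18, 9.31, 9.85 and 9.84 against 6.54 and 7.35 where the gene differed by -0.60. The position of these probe sets in their transcripts was not analysed here.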

How the data were processed

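RNA of 26 samples was measured once each on the Affymetrix Mouse Exon 1.0 ST array. The values deposited by the authors are RMA log2 values per probe set made with Affymetrix Expression Console at the extended exon level, per the labels. Its version was not given in the sources used here. The log base was read from the RMA convention and the range of 0.831 to 15.6. RMA corrects background, sets arrays to a common distribution and summarises probes, which compresses low values. Of 631748 probe sets, 306069 had 1 symbol in the platform annotation, and 3725 of 21757 symbols were updated through RefSeq. Gene values were computed from these as stated above, with a median of 13 probe sets per gene, in Python 3.11.15 with pandas 2.3.3 and numpy 2.4.6. A minimum gap between ranges, other summaries, scalings and limits and the leaving out of arrays were tried as alternatives. The counting was tested on simulated arrays with differences far above the 2-fold limit and little noise. This checks the code and does not show how the rule performs near its limit or at the spread of these arrays. Arrays give no read depth, and their number limits the precision. Probe sets were tested for departure from their gene where gene and probe set were above the median in both sets.

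The members and the 32 gene lists, with 692 of 748 genes measured, were chosen with earlier results of these data known. Named genes were the 3 marker genes, the 14 largest differences in each direction, up to 4 per list by size among those counted and the probe sets departing furthest; further members were named after their values were seen. The promoter table held no entry for Cdh1 or Dppa5a, so the 3 lower epithelial genes with the largest difference that had an entry were shown, with Pou5f1.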

Additional observations from a re-analysis of the deposited data

Results flagged for a closer look

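Among ES21 to ES24, 149 gene values and list means were checked for 1 array standing apart from the other 3 by Dixon's ratio of gap to range, and 7 were past its critical value. Chance passes about 1 in 20 such checks where arrays are alike and checks independent. Here ES21 and ES22 stood together and the checks share genes, so that rate need not hold. Nothing is read from the number of values past the limit.

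ES24 gave 4 of the 7. Its Cdkn1a value was 8.05 beside 8.49 to 8.51 on the other 3 arrays, and Hsd17b7, of cholesterol synthesis, was 8.72 beside 9.31 to 9.41. The mean of the oxidative phosphorylation list was 10.10 in ES24 beside 10.63 to 10.69, and that of the cholesterol synthesis list 9.85 beside 10.31 to 10.40. ES23 gave 2, with Fbxo15, a pluripotency F-box gene, at 11.15 beside 9.79 to 9.96 and Sycp3 at 7.27 beside 6.17 to 6.35. ES21 gave 1, a cardiac list mean of 6.53 beside 6.38 to 6.40. For Fbxo15, Sycp3 and Cdkn1a all 4 arrays nevertheless lay above ES25 and ES26.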

How the results depend on the processing

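No paired analysis was possible because the titles give each array a number of its own. Under the alternatives, 1714 differences of named genes moved by less than the spread between arrays and 114 by more, and none of those counted reversed. The 603 higher genes became 12 at a 4-fold limit, 3297 with no minimum difference, 357 with a gap of at least 0.5 between the ranges, 1316 without ES21 and ES22, 183 without ES23 and ES24 (both chosen after seeing the data), and 344 to 997 with 1 array left out. The 799 lower genes became 245 at a 4-fold limit, 2959 with no minimum, 445 without dim genes and 726 to 994 with 1 array left out; without dim genes 53.1% of the genes counted were higher, beside 43.0%. The epithelial median of -1.38 became -1.80 over all probe sets, -2.05 without dim genes, -1.68 without ES21 and ES22, -1.08 without ES23 and ES24 and -1.49 to -1.22 with 1 array left out. The naive median of -1.95 became -2.40 with probe sets ranked over the 6 arrays, -1.16 with at least 8 probe sets and -2.05 to -1.84 with 1 array left out. Medians with 1 array left out were 0.92 to 1.37 for the fibroblast list, -1.237 to -1.002 for the primed list and -0.30 to -0.14 for blood and endothelium. The 17 departing probe sets became 5 at a limit of 3 log2 units, 56 without ES21 and ES22 and 15 to 30 with 1 array left out. Reversed were the globin list, at 0.007 with at least 8 probe sets and 0.41 without dim genes, and the stress list, at -0.47 with at least 8 probe sets and -0.059 (without ES26) to 0.246 with 1 array left out. The cause was not tested. Low RMA values are compressed, so differences of dim genes may be understated, which was not measured here.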
